A study of Mus musculus with 16 samples.

Results

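The expression of 10 regulators of early blood cell identity was followed through the RNA-seq and m6A-seq data of mouse CFU-E cells, the erythroid progenitors that come just before proerythroblasts. They are the transcription factors *Gata2*, *Myb*, *Hhex*, *Meis1*, *Fli1*, *Etv6*, *Ikzf1* and *Runx1*, the transcriptional coregulator *Mn1*, and *Zfp36l2*, which encodes a protein that binds AU-rich elements in mRNAs and recruits deadenylases to them. The list was fixed by gene symbol and was drawn up with the fall or stability of each gene in these same libraries in view, so the values of the 10 genes are a description and carry no test. All 10 were found among the 15386 genes of the RNA-seq table and the 13490 genes of the m6A table. All 10 also passed edgeR's filter on low counts, as did 11979 and 11447 genes in all.

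The libraries came from sorted bone marrow of adult male and female mice on a C57BL/6 background. Control CFU-E cells gave 3 RNA-seq libraries, and 3 more are labelled Kit-low *Mettl3* KO, called CFU-E Kit-lo here. The labels name no allele or age, and the genotype of the control mice is not given in the sources used here. In the study's methods the deleted mice carried a floxed *Mettl3* and a Cre driven by the erythropoietin receptor gene, which is active in erythroid cells, in macrophages of the erythroblastic island and in part in stem cells. CFU-E Kit-lo cells are CFU-E cells with little of the receptor Kit on their surface, and no Kit-low cells of control mice are among the libraries used here, so genotype and Kit gate cannot be told apart. For m6A-seq, 2 libraries of RNA captured with an antibody against m6A (IP) and 2 of input RNA were made from control CFU-E cells alone. Counts totaled 21329242, 17429262 and 18163121 in the control RNA-seq libraries and 18698840, 19987964 and 19313314 in the CFU-E Kit-lo libraries. The input libraries held 23160909 and 19421059 counts and the IP libraries 37142742 and 20085663. The labels do not say whether replicates came from separate animals, so the spread between them may be technical.

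As background, *Gata2* and *Gata1* encode zinc finger proteins that bind the same DNA motif, and *Gata2* is normally replaced by *Gata1* as erythroid cells mature. *Myb* drives the proliferation of erythroid progenitors and declines with maturation, and *Zfp36l2* is known to be needed for the self-renewal of early erythroid progenitors. m6A is a methyl mark on adenosine in mRNA that is laid down by a complex whose catalytic subunit is Mettl3, and it is read by proteins that often shorten the life of the transcript.

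*Mettl3*, the deleted gene, had overlapping levels in the 2 groups. It stood at 115, 123 and 130 CPM (counts relative to library size, scaled by TMM, the trimmed mean normalization of edgeR) in control CFU-E and at 117, 127 and 108 CPM in CFU-E Kit-lo. The log2 fold change was -0.07 (SE 0.096, adjusted p = 0.63 by edgeR with Benjamini-Hochberg adjustment). A count per gene cannot show the loss of single exons, and *Tox4*, on the other strand, shares 18.4% of the exonic bases of *Mettl3*, with no strand setting stated for the counting. Below, CFU-E Kit-lo means the libraries labelled so, and each direction depends on that labelling. *Kit*, the receptor of the sort, stood at 544, 629 and 622 CPM in control libraries and at 68.5, 53.1 and 44.0 CPM in CFU-E Kit-lo (log2 fold change -3.44, SE 0.15, adjusted p = 4.3e-07 by edgeR with Benjamini-Hochberg adjustment).

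In control CFU-E cells the 10 regulators spanned a wide range of abundance. Per kilobase of the longest coding transcript, *Ikzf1* was highest at 122 ± 4.48 CPM per kb (SD, n = 3), followed by *Myb* at 42.6 ± 2.71, *Zfp36l2* at 22.0 ± 2.41, *Hhex* at 17.9 ± 2.33, *Runx1* at 10.3 ± 0.862, *Gata2* at 9.72 ± 0.765, *Etv6* at 6.71 ± 0.85, *Fli1* at 2.03 ± 0.352, *Mn1* at 0.884 ± 0.413 and *Meis1* at 0.244 ± 0.0738. The libraries of neighbours in this order overlapped for *Zfp36l2* and *Hhex* and for *Runx1* and *Gata2*, and for no other neighbours. *Gata1*, the main GATA factor of these cells, stood far above them at 312 ± 9.97 CPM per kb.

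*Gata2*, *Myb*, *Hhex*, *Mn1* and *Zfp36l2* were lower in CFU-E Kit-lo by a fold of at least 1.5 and an adjusted p under 0.05, and the other 5 regulators were not called. For the 10 regulators these thresholds sort a list chosen on the same contrast, so their calls are labels and not tests. Over all genes tested, 9.83% were called lower and 12.1% higher in the same comparison. Since the list was chosen on this contrast, nothing is read from the difference between 5 of 10 and that background. The CFU-E Kit-lo libraries lay wholly below the control libraries for 6 of the 10 and wholly above for 0, where 24% and 23.5% of all genes did so. The median log2 fold change of the 10 was -0.91, beside 0.01 over all genes. In bulk libraries, fewer cells that express a gene and less of its RNA per cell cannot be told apart.

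**Figure D1:**
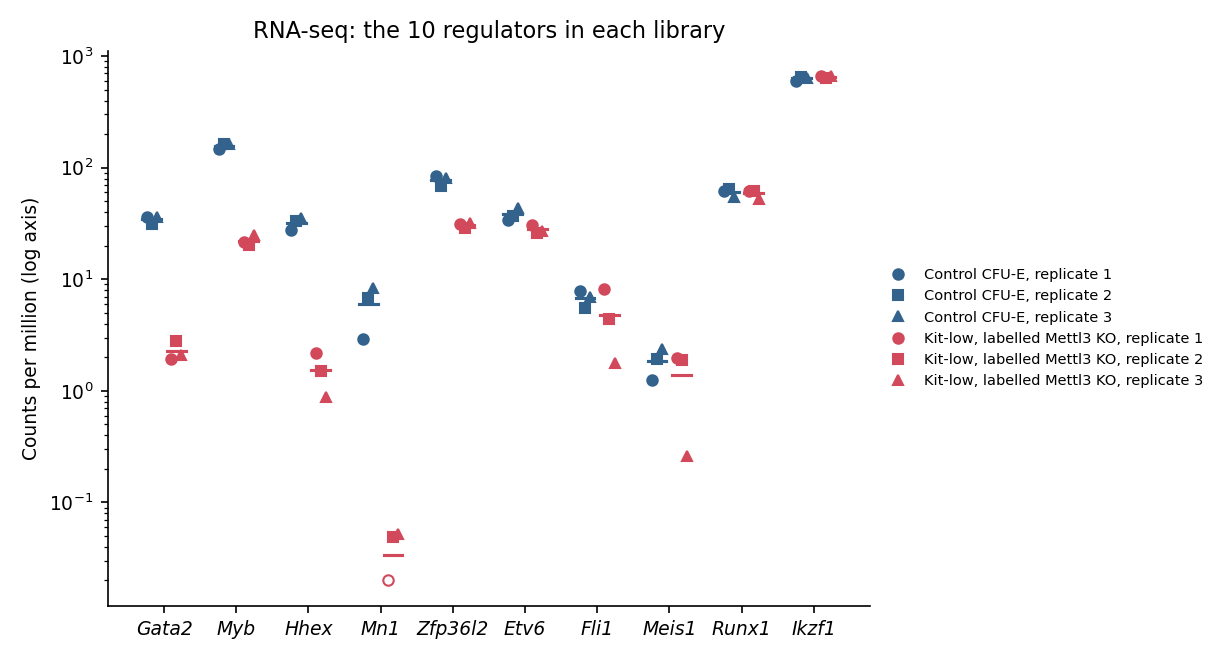
CPM (log axis) of the 10 regulators in each RNA-seq library, with control CFU-E in blue, CFU-E Kit-lo in red, symbols for replicates and bars for group means. *Gata2*, *Myb*, *Hhex*, *Mn1* and *Zfp36l2* sit lower in all 3 CFU-E Kit-lo libraries, *Ikzf1* and *Runx1* overlap, and the open symbol at the foot of the axis is the library with 0 counts of *Mn1*.

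*Gata2* lies at chr6:88193891-88207032 on the plus strand (GRCm38) and its longest coding transcript has 6 exons. Its level was 36.3, 31.6 and 36.4 CPM in control CFU-E and 1.92, 2.82 and 2.09 CPM in CFU-E Kit-lo. All 3 CFU-E Kit-lo libraries were far below the lowest control, and the mean fell to 6.55% of control (log2 fold change -3.93, SE 0.20). *Gata1* did not move with it. *Gata1* read 599, 573 and 610 CPM in control CFU-E and 692, 586 and 598 CPM in CFU-E Kit-lo (log2 fold change 0.07, SE 0.083, adjusted p = 0.53 by edgeR with Benjamini-Hochberg adjustment). Expressed as a share of the *Gata1* count in the same library, *Gata2*, count for count and not per length, was 6.05%, 5.51% and 5.96% in controls and 0.278%, 0.48% and 0.349% in CFU-E Kit-lo.

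*Myb* (chr10:21124935-21160984, minus strand, 16 exons) was the most abundant of the regulators that fell. It read 146, 162 and 164 CPM in control CFU-E and 21.5, 20.1 and 24.7 CPM in CFU-E Kit-lo, a fall to 14% of control with no overlap (log2 fold change -2.83, SE 0.11). An antisense gene shares 6.26% of its exonic bases. *Mybl2*, the relative of *Myb* that serves cell cycle genes in dividing cells, moved the other way, from 48.7, 56.2 and 46.7 CPM to 93.0, 81.1 and 86.6 CPM (log2 fold change 0.78, SE 0.11, adjusted p = 0.00048 by edgeR with Benjamini-Hochberg adjustment). The ratio of *Myb* to *Mybl2* counts was 299%, 288% and 352% in controls and 23.1%, 24.9% and 28.5% in CFU-E Kit-lo. Per kilobase, *Myb* exceeded *Mybl2* in control CFU-E (42.6 and 13.8 CPM per kb on average) and *Mybl2* exceeded *Myb* in CFU-E Kit-lo (23.8 and 5.98 CPM per kb).

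*Gata2* and *Myb* have a stretch before a RefSeq start that is free of annotated exons, as do *Ikzf1*, *Runx1* and *Etv6*, which were not called. The 100 bases before the first *Gata2* start (chr6:88193791-88193890, plus strand) and before the *Myb* start (chr10:21160985-21161084, minus strand) are shown because both genes fell in all 3 libraries. They are written on the strand of the gene, 5′ to 3′, from the RefSeq promoter table for GRCm38.p6, with each CG dinucleotide in capitals.
Gata2: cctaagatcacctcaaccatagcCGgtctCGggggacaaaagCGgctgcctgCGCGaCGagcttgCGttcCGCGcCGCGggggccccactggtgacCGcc
Myb: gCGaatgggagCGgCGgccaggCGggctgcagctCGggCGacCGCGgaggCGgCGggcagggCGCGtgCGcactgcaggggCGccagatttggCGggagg

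These windows hold 12 and 15 CG dinucleotides. Over windows of 300 bases, from 250 before to 50 after a start, this *Gata2* promoter held 32 and the *Myb* promoter 40. The median over 32851 promoters was 7. Promoters of regulators that were not called held 52 and 2 (*Ikzf1*), 35 and 2 (*Runx1*), 17 (*Etv6*) and 15 (*Meis1*). A link between these counts and the RNA changes was not tested. The promoter table held 10 promoters of 7 of the regulators, and *Mn1*, *Fli1* and *Zfp36l2* were without an entry. On either strand, AGATAA or TGATAA, letters of the GATA motif, occurred in 0 of these 10 promoters and in 18.6% of all promoters. CCGGAA, a core of the ETS motif, occurred in 2 of 10 (that of *Meis1* and 1 of *Runx1*) and in 14.9% of all, and TGTGGT, a RUNX motif, in 2 of 10 (that of *Meis1* and the other of *Runx1*) and in 16.8% of all. The 2 GATA strings differ in their first base alone, and a match is a description of the window, not of a bound site.

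*Hhex*, a homeobox gene of early blood and endothelial progenitors (chr19:37434810-37440731, plus strand, 4 exons), read 27.5, 33.6 and 35.6 CPM in control CFU-E. It read 2.18, 1.51 and 0.887 CPM in CFU-E Kit-lo, which is 4.73% of the control mean (log2 fold change -4.39, SE 0.29). The 3 CFU-E Kit-lo libraries held 42, 31 and 17 counts of it against 574, 587 and 621 in controls, and the lowest was CFU-E Kit-lo replicate 3.

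*Mn1*, a coregulator known from myeloid leukemia (chr5:111417362-111457033, plus strand, 2 exons), was nearly undetected in CFU-E Kit-lo. Control libraries held 61, 120 and 147 counts (2.92, 6.86 and 8.42 CPM), and CFU-E Kit-lo libraries held 0, 1 and 1. From 328 and 2 counts in all, the ratio of control to CFU-E Kit-lo was 173, with an exact 95% counting interval of 47.6 to 1440. That interval covers counting error only, and the fitted log2 fold change of -7.23 (SE 0.74) depends on how the fit treats the counts near 0. Control replicate 1 held less than the other control libraries.

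*Zfp36l2* (chr17:84183931-84187947, minus strand, 2 exons) fell less than the other 4 called genes. It read 83.9, 68.1 and 81.4 CPM in control CFU-E and 31.6, 28.8 and 32.2 CPM in CFU-E Kit-lo, or 39.7% of control with no overlap (log2 fold change -1.33, SE 0.12). It was the called gene nearest to the threshold of 1.5-fold, which is 0.585 on the log2 scale, and *Fli1* at -0.49 and *Etv6* at -0.45 lay nearest on the other side.

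*Etv6*, an ETS family repressor needed to maintain stem cells (chr6:134035700-134270158, plus strand), read 34.1, 37.1 and 43.6 CPM in control CFU-E and 30.9, 26.1 and 27.2 CPM in CFU-E Kit-lo. The groups did not overlap, yet the difference stayed under the fold threshold (log2 fold change -0.45, SE 0.14). *Fli1*, an ETS activator of the megakaryocytic side of the lineage choice (chr9:32422204-32542861, minus strand), read 7.81, 5.49 and 6.93 CPM in controls and 8.26, 4.37 and 1.77 CPM in CFU-E Kit-lo (log2 fold change -0.49, SE 0.46). *Meis1*, a homeobox partner of Hox proteins (chr11:18879817-19018985, minus strand), read 1.25, 1.94 and 2.35 CPM in controls and 1.97, 1.89 and 0.261 CPM in CFU-E Kit-lo (log2 fold change -0.42, SE 0.66).

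For both *Fli1* and *Meis1* the groups overlapped and CFU-E Kit-lo replicate 3 was the low library. Without it the log2 fold change was -0.08 (SE 0.33) for *Fli1* and 0.09 (SE 0.48) for *Meis1*, and without CFU-E Kit-lo replicate 1 it was -1.14 (SE 0.40) and -0.77 (SE 0.74). *Meis1* held 5 to 41 counts a library, and its CFU-E Kit-lo libraries differed widely, at 38, 39 and 5 counts. It also shares exonic bases with 2 other annotated genes (9.77% on its own strand and 8.51% on the other).

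*Ikzf1* and *Runx1* had overlapping libraries and log2 fold changes near 0. *Ikzf1*, the Ikaros zinc finger gene of lymphoid and erythroid cells (chr11:11685003-11772926, plus strand), read 604, 647 and 641 CPM in controls and 660, 632 and 664 CPM in CFU-E Kit-lo (log2 fold change 0.05, SE 0.069). *Runx1*, a founder of definitive hematopoiesis (chr16:92601466-92826149, minus strand), read 61.9, 64.3 and 54.6 CPM and 62.4, 62.0 and 52.4 CPM (log2 fold change -0.03, SE 0.12). The standard errors of both are small beside the fold threshold.

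Family members of the 10 were called in both directions. Of 24 relatives, 18 were tested in the RNA-seq table, of which 3 were called higher, 2 lower and 13 neither. Of all genes, 12.1% were called higher and 9.83% lower. The median log2 fold change of the relatives was 0.10. Among the Ikaros genes, where *Ikzf1* was level, *Ikzf2* fell from 4.41, 6.35 and 4.18 CPM to 0.0519, 0.680 and 0.261 CPM (log2 fold change -3.87, SE 0.63, adjusted p = 0.0011 by edgeR with Benjamini-Hochberg adjustment). *Ikzf5* rose from 40.0, 38.4 and 45.0 CPM to 64.2, 82.3 and 67.5 CPM (log2 fold change 0.79, SE 0.13), and *Ikzf4*, at 4, 8 and 0 counts in controls, rose to 65, 30 and 54 counts (log2 fold change 3.52, SE 0.82). *Runx3* overlapped between the groups, as *Runx1* did.

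The *Zfp36* family differed within itself. *Zfp36*, encoding tristetraprolin, the best known of the proteins that destabilize AU-rich mRNAs, fell from 88.4, 77.6 and 62.7 CPM to 19.0, 24.3 and 15.6 CPM (log2 fold change -1.96, SE 0.18, adjusted p = 4e-05 by edgeR with Benjamini-Hochberg adjustment). *Zfp36l1* read 56.8, 50.1 and 55.3 CPM in controls and 61.3, 65.4 and 47.6 CPM in CFU-E Kit-lo, with overlap (log2 fold change 0.10, SE 0.14), and 55.9% of its exonic bases lie opposite a noncoding gene. *Zfp36l2* counts were 148%, 136% and 147% of *Zfp36l1* counts in controls and 51.6%, 44.1% and 67.7% in CFU-E Kit-lo. Per kilobase the averages of *Zfp36l2* and *Zfp36l1* were 22.0 and 18.1 CPM per kb in controls and 8.75 and 19.4 CPM per kb in CFU-E Kit-lo. None of the 8 tested ETS relatives of *Etv6* and *Fli1* was called, and their log2 fold changes ran from -1.2 (SE 0.67) for *Ets1*, whose groups overlapped, to 0.34 (SE 0.11) for *Elf1*, both named after their values were seen.

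**Figure D2:**
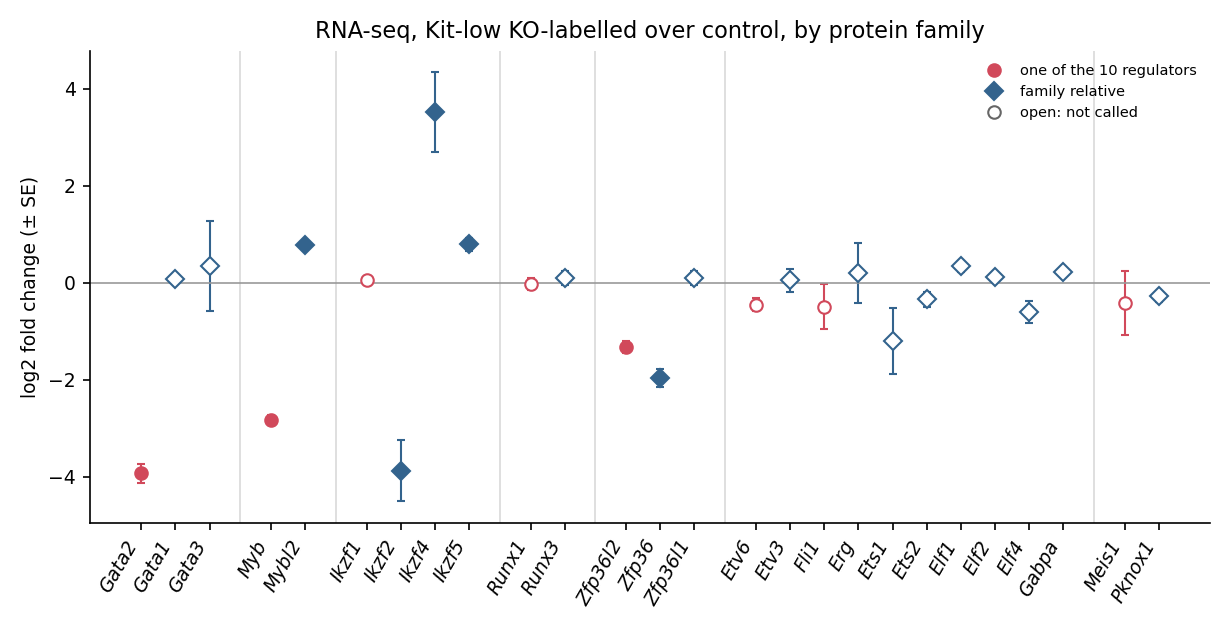
RNA-seq log2 fold change of CFU-E Kit-lo over control with its SE, for the regulators that have tested relatives (red circles) and all 18 tested relatives (blue diamonds), grouped by protein family, with open symbols for genes not called. *Gata2* and *Myb* lie far below 0 while *Gata1* is near 0 and *Mybl2* is at 0.78, and *Ikzf2* and *Ikzf4* lie on opposite sides of *Ikzf1*.

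Of 22 tested binding partners of these factors, 3 were called higher, 1 lower and 18 neither, where 12.1% and 9.83% of all genes were called (median log2 fold change -0.12). *Zfpm1*, the cofactor of GATA proteins known as FOG1, rose from 7.33, 13.6 and 11.4 CPM to 22.8, 27.0 and 38.7 CPM (log2 fold change 1.46, SE 0.26). *Ep300*, a histone acetyltransferase that serves Myb and other factors, rose by 0.89 on the log2 scale (SE 0.13). *Runx1t1* rose from 4, 13 and 11 to 28, 77 and 31 counts (log2 fold change 2.13, SE 0.64), and *Cbfa2t3*, its relative in a corepressor of GATA and TAL1 complexes, fell from 109, 76.6 and 102 CPM to 43.9, 49.9 and 38.1 CPM (log2 fold change -1.12, SE 0.15). The call of *Runx1t1* was lost without control replicate 1 (adjusted p = 0.088 by edgeR with Benjamini-Hochberg adjustment), control replicate 3 (adjusted p = 0.073) or CFU-E Kit-lo replicate 2 (adjusted p = 0.12).

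Among other stem and progenitor transcription factors, 3 of 11 tested were called higher and 3 lower (median log2 fold change -0.13), beside 12.1% and 9.83% of all genes. *Egr1*, an immediate early gene, fell most, from 142, 152 and 120 CPM to 2.08, 8.69 and 9.80 CPM (log2 fold change -4.33, SE 0.40). *Klf6* fell by 1.06 on the log2 scale and *Sox4* by 1.42. *Sox4* was not called without control replicate 1 (adjusted p = 0.074 by edgeR with Benjamini-Hochberg adjustment) or control replicate 3 (adjusted p = 0.067). *Bcl11a*, a repressor of embryonic globin genes, rose from 200, 189 and 199 CPM to 367, 383 and 375 CPM (log2 fold change 0.94, SE 0.071), *Nfe2* rose by 0.67 (SE 0.11), and *Irf8* rose from 0, 2 and 3 to 11, 33 and 32 counts. Without CFU-E Kit-lo replicate 1, *Nfe2* fell under the fold threshold at 0.57.

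Where 9.83% of all genes were called lower and 12.1% higher, surface and signalling genes of progenitors showed 4 falls and 0 rises among 13 tested (median -0.09). Besides *Kit*, these were *Muc13*, from 40.3, 48.8 and 63.6 CPM to 7.53, 7.43 and 2.92 CPM (log2 fold change -3.09, SE 0.32), *Angpt1* at -1.94 (SE 0.38) and *Csf2ra*, named after its values were seen, from 13.7, 16.2 and 10.8 CPM to 6.54, 6.31 and 7.67 CPM (-0.99, SE 0.22). Of 8 tested glucocorticoid response genes, 4 were called lower, 0 higher and 4 neither (median -0.80), beside the same shares of all genes. *Nr3c1*, the glucocorticoid receptor, which sustains self-renewal of erythroid progenitors, fell from 95.9, 98.0 and 96.2 CPM to 33.9, 39.5 and 45.5 CPM (log2 fold change -1.29, SE 0.12, adjusted p = 3.9e-05 by edgeR with Benjamini-Hochberg adjustment). *Dusp1* and *Fkbp5*, of the same list, had log2 fold changes of -1.62 (SE 0.17) and -1.51 (SE 0.21). *Klf9*, the other gene called lower, was at -1.08 (SE 0.22). The 4 genes of the list that were tested and not called are named after their values were seen. *Tsc22d3* (-0.14, SE 0.22), *Sgk1* (-0.12, SE 0.43) and *Per1* (-0.51, SE 0.30) overlapped between the groups, and *Ddit4* was higher in all 3 CFU-E Kit-lo libraries (1.12, SE 0.48).

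The deadenylase complex CCR4-NOT, which Zfp36 family proteins recruit to mRNA, had 2 of 15 genes higher and 2 lower (median 0.03). Over all genes these shares were 12.1% and 9.83%. The rises were *Btg2* (log2 fold change 1.07, SE 0.15) and *Tob1* (1.19, SE 0.30), adaptors of the complex, and the falls were the catalytic subunit *Cnot7* (-0.63, SE 0.14) and *Cnot10* (-0.59, SE 0.098). Both falls lay close to the fold threshold. *Cnot7* dropped under it without CFU-E Kit-lo replicate 3 (-0.52) and *Cnot10* without control replicate 1 (-0.57), CFU-E Kit-lo replicate 1 (-0.56) or CFU-E Kit-lo replicate 2 (-0.54), and both with scaling by library sizes alone (-0.58 and -0.54). Over the 6 lists, 87 of 114 genes were tested, 11 were called higher and 16 lower, beside the background shares given above, and the lists were written with earlier results of these data known.

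Genes with the most similar profile were sought among 6929 genes whose average log2 CPM was 4 or more, by the root mean square difference of centred log2 CPM over the 6 RNA-seq libraries. Nearest to *Gata2* were *Apoe* (0.25), *Il31ra* (0.35) and *Kit* itself (0.37). Near to *Myb* were *Ptpn14* (0.18) and *Hif3a* (0.20). Nearest to *Zfp36l2* were *Zfp783* (0.088), *Insig1* (0.094) and *Mthfd1* (0.097), the last an enzyme of folate metabolism that read 1960 CPM on average in controls and 838 CPM in CFU-E Kit-lo. These distances describe 6 libraries in 2 groups and hold little beyond the size of the group difference.

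Erythroid markers were abundant in both groups, while the markers of maturity differed between them. The 12 erythroid markers summed to 17400, 16700 and 17300 CPM in controls and 12600, 14100 and 13900 CPM in CFU-E Kit-lo, with *Car2* the most abundant (9330 and 7440 CPM on average), and 6 of the 12 were called higher and 1 lower. Chosen after their values were seen, *Slc4a1*, the band 3 anion exchanger of mature red cells, rose from 0.958, 1.43 and 3.15 CPM to 198, 313 and 352 CPM, *Alas2*, the first enzyme of heme synthesis in erythroid cells, rose from 1.96, 4.52 and 2.18 CPM to 98.9, 193 and 118 CPM, and *Car1*, a carbonic anhydrase, fell from 3860, 4260 and 4040 CPM to 746, 802 and 657 CPM. These values moved with the falls of *Gata2*, *Myb*, *Hhex*, *Mn1* and *Zfp36l2*, and their part in the result was not tested.

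Markers of other cell types were low throughout. Of 11 macrophage markers 10 were in the table and 2 of the 8 tested were called lower. They summed to 24.2, 24.8 and 29.6 CPM in controls and 17.8, 18.2 and 21.8 CPM in CFU-E Kit-lo, led by *Cd163* (13.5 and 6.36 CPM on average), and *Adgre1* held 2 counts in every control library and 0 in every CFU-E Kit-lo library. Of the granulocyte markers in the table, 1 was called higher and 1 lower of 4 tested, and the 9 summed to 39.2, 29.7 and 25.8 CPM and 16.4, 16.1 and 24.8 CPM. *Mpo* led them in controls (19.6 CPM on average, and 5.01 CPM in CFU-E Kit-lo). In CFU-E Kit-lo *Prtn3*, named after its values were seen, was above *Mpo* on average. *Prtn3* overlapped between the groups (6.7 CPM in controls and 8.54 CPM in CFU-E Kit-lo). Of 5 megakaryocyte markers tested 2 were called higher and 1 lower, and the 7 in the table summed to 21.8, 29.3 and 21.5 CPM and 26.2, 29.5 and 21.4 CPM, led by *Vwf*, with *Treml1* at 0 in CFU-E Kit-lo. The 5 mast cell and basophil markers summed to 2.78, 3.03 and 5.78 CPM and 0.935, 0.388 and 3.60 CPM, with *Cpa3* at 0 in CFU-E Kit-lo. *Prss34* had the highest mean of them, from 0.527, 0 and 2.40 CPM in controls and 0, 0 and 2.03 CPM in CFU-E Kit-lo, so that replicate 3 of each group carried it.

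The 9 lymphoid markers summed to 1.20, 2 and 2.12 CPM in controls and 3.27, 5.20 and 4.28 CPM in CFU-E Kit-lo, with *Igll1* at 0 in controls and called higher. *Ebf1* had the highest mean over the 6 libraries, but its 0.104, 2.18 and 0.887 CPM in CFU-E Kit-lo rested on replicate 2, and in controls *Il7r* was above it on average. The 5 stem cell markers summed to 9.29, 9.84 and 14.5 CPM and 5.09, 4.08 and 8.81 CPM, most of it *Hoxa9*, and *Mecom* held 7, 14 and 21 counts in controls and 0 in each CFU-E Kit-lo library. The macrophage, granulocyte and stem cell sums were thus lower in all 3 CFU-E Kit-lo libraries, along with the 5 falling regulators, the lymphoid sum was higher in all 3, and the part of these lists in those falls was not tested.

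**Figure D3:**
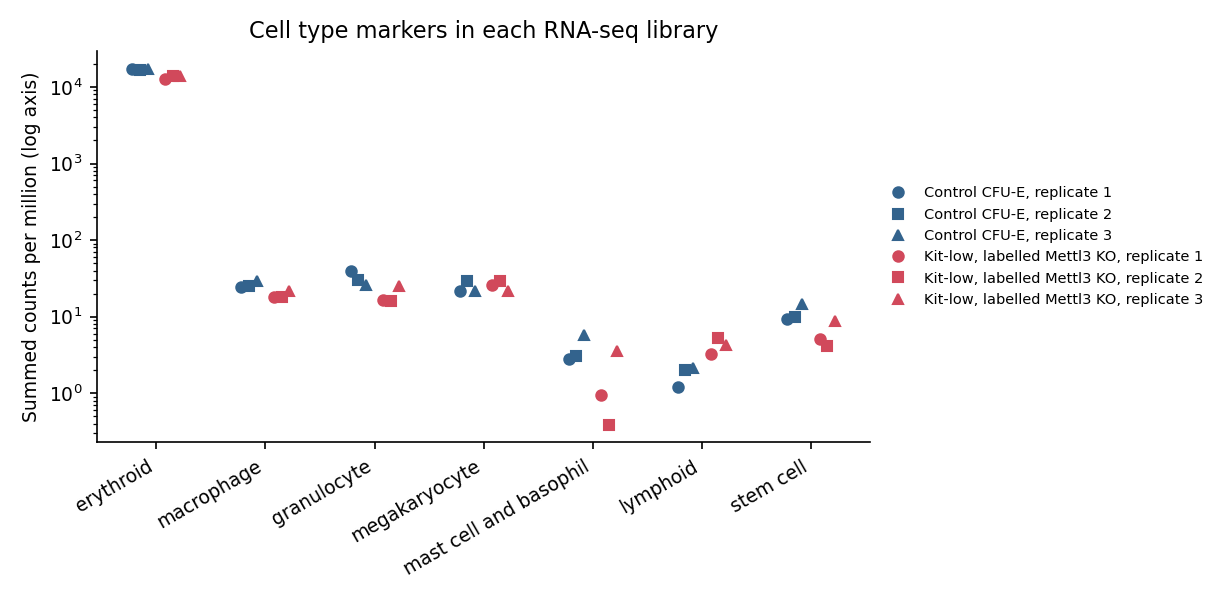
Summed CPM (log axis) of each list of cell type markers in the 6 RNA-seq libraries, control CFU-E in blue and CFU-E Kit-lo in red, with symbols for replicates. The erythroid list lies between 12600 and 17400 CPM and every other list under 40 CPM.

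The m6A libraries asked which transcripts of control CFU-E cells the antibody retained. RNA was captured whole as far as the methods state, and both IP and input were primed at the poly(A) tail, so IP over input is a value for a gene and not for a site. Over all genes, 7.9% were called higher in IP and 7.86% lower at an adjusted p under 0.05, or 904 and 900 of 11447. Scaling by library sizes alone gave 934 and 608, and upper-quartile scaling 1451 and 754. The count of higher genes was 164 without input replicate 1, 571 without input replicate 2, 433 without IP replicate 1 and 1358 without IP replicate 2, and that of lower genes was 427 without input replicate 1. With 2 libraries a group these calls are the less certain of the 2 experiments.

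GGACT is one form of the sequence in which m6A is commonly found. It is shown here in the regulators called lower in the RNA-seq and in *Runx1*, the lowest of IP over input, as the copy nearest the stop codon in the longest coding transcript of GENCODE vM21. The copies are at chr6:88205660-88205664 for *Gata2*, chr10:21125390-21125394 for *Myb*, chr19:37439831-37439835 for *Hhex*, chr5:111421750-111421754 for *Mn1*, chr17:84185649-84185653 for *Zfp36l2* and chr16:92605628-92605632 for *Runx1* (GRCm38). Each is given 5′ to 3′ on the strand of the gene with 10 bases on either side and the motif in capitals.
Gata2: tctccttggaGGACTcccagccttg
Myb: gttagataacGGACTatgcactagt
Hhex: tttagagaccGGACTttagaataat
Mn1: ctatcgacctGGACTccctgatggc
Zfp36l2: ccgagcacttGGACTcgaactctgc
Runx1: cgccatcgagGGACTgggcctgccg

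The copy of *Mn1* lies in the coding sequence, and the others lie in the 3′ UTR. Distances run from the first base of the stop codon to the first base of the motif. The *Mn1* copy starts 307 bases before that base of the stop codon. The others start after it, at 168 bases for *Gata2*, 781 for *Myb*, 28 for *Hhex*, 102 for *Zfp36l2* and 25 for *Runx1*. *Mn1* held 11 copies in all, *Etv6* 9, *Meis1* and *Fli1* 7 each, *Runx1* 6, *Myb*, *Ikzf1* and *Zfp36l2* 3 each, and *Gata2* and *Hhex* 1 each. Per kilobase this was 0.28 for *Gata2* and 2.11 for *Fli1*, the ends of the range, beside a median of 1.03 over 11441 genes with a transcript. The data give no methylation of any of these copies.

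Of the 10 regulators, *Mn1* was called higher in IP and none was called lower, where 7.9% and 7.86% of all genes were. IP lay wholly above input for 6 and wholly below for 2, where 32.2% and 28.7% of all genes did so, and the median log2 fold change was 0.37 beside 0.06 over all genes. These values too are a description, since the list was drawn up with IP over input in view.

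*Mn1* stood at 2.56 and 4.50 CPM in input and at 10.6 and 8.64 CPM in IP, which is 2.72 times the input mean (log2 fold change 1.46, SE 0.35). Both IP libraries were above both input libraries, from 58 and 80 counts in input and 441 and 172 in IP. Without input replicate 1 the log2 fold change was 1.07 (SE 0.43) and *Mn1* was not called. *Zfp36l2* stood at 14.4 and 19.5 CPM in input and at 30.6 and 27.7 CPM in IP (log2 fold change 0.79, SE 0.26), again with both IP libraries above, and it was the uncalled regulator with the highest value. Under 2 of its 11 alternatives, upper-quartile scaling (0.91) among them, it was called as well.

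*Fli1* came next with 1.94 and 3.15 CPM in input and 4.05 and 3.97 CPM in IP (log2 fold change 0.67, SE 0.38). *Hhex* stood at 19.5 and 21.8 CPM and 30.1 and 23.6 CPM (0.38, SE 0.25), *Myb* at 34.5 and 33.4 CPM and 48.3 and 39.4 CPM (0.37, SE 0.24), and *Ikzf1* at 27.8 and 30.4 CPM and 37.6 and 37.5 CPM (0.37, SE 0.23). In each of these 4 genes both IP libraries were above both input libraries. Leaving out a library moved some of them, with *Fli1* at 0.33 without input replicate 1 and 1.04 without input replicate 2, and *Hhex* and *Myb* at 0.18 and 0.20 without IP replicate 1.

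*Gata2* stood at 13.0 and 10.3 CPM in input and at 11.6 and 9.70 CPM in IP, with overlap (log2 fold change -0.13, SE 0.28), and the sign turned under scaling by library sizes alone (0.03). *Etv6* overlapped as well, at 5.51 and 8.54 CPM and 5.49 and 8.24 CPM (-0.04, SE 0.34), and its sign turned as well (0.11). Leaving out 1 library at a time moved *Gata2* between -0.29 and 0.02 and *Etv6* between -0.35 and 0.30, so neither has a direction that holds. *Runx1* at 15.6 and 16.4 CPM in input and 12.0 and 11.1 CPM in IP (-0.47, SE 0.26) and *Meis1* at 2.87 and 2.14 CPM and 2.01 and 1.61 CPM (-0.46, SE 0.41) were lower in both IP libraries without being called.

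**Figure D4:**
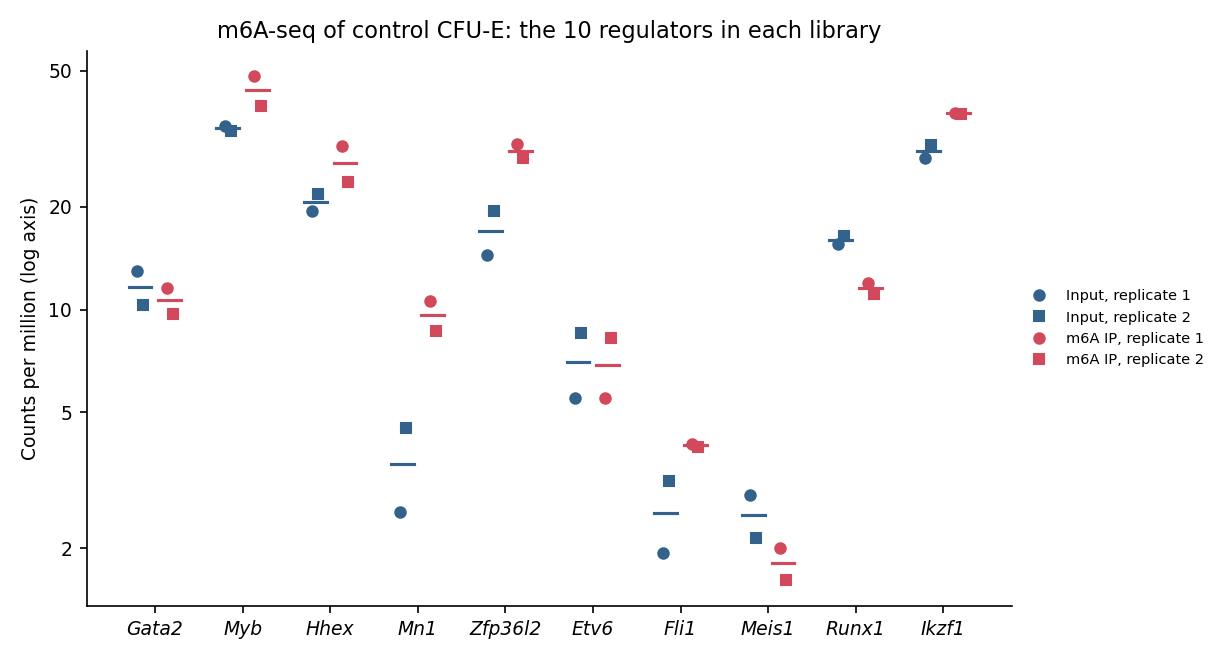
CPM (log axis) of the 10 regulators in the m6A-seq libraries of control CFU-E, input in blue and IP in red, with symbols for replicates and bars for group means. *Mn1*, *Zfp36l2*, *Fli1*, *Hhex*, *Myb* and *Ikzf1* are higher in both IP libraries, *Runx1* and *Meis1* are lower in both, and *Gata2* and *Etv6* overlap.

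Set side by side, the 5 regulators that fell in CFU-E Kit-lo had log2 fold changes of IP over input from -0.13 for *Gata2* to 1.46 for *Mn1*, and the 5 that were not called had values from -0.47 for *Runx1* to 0.67 for *Fli1*. *Myb* and *Ikzf1* had the same value of 0.37, with RNA changes of -2.83 and 0.05. No test is given, as both measures chose the genes.

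**Figure D5:**
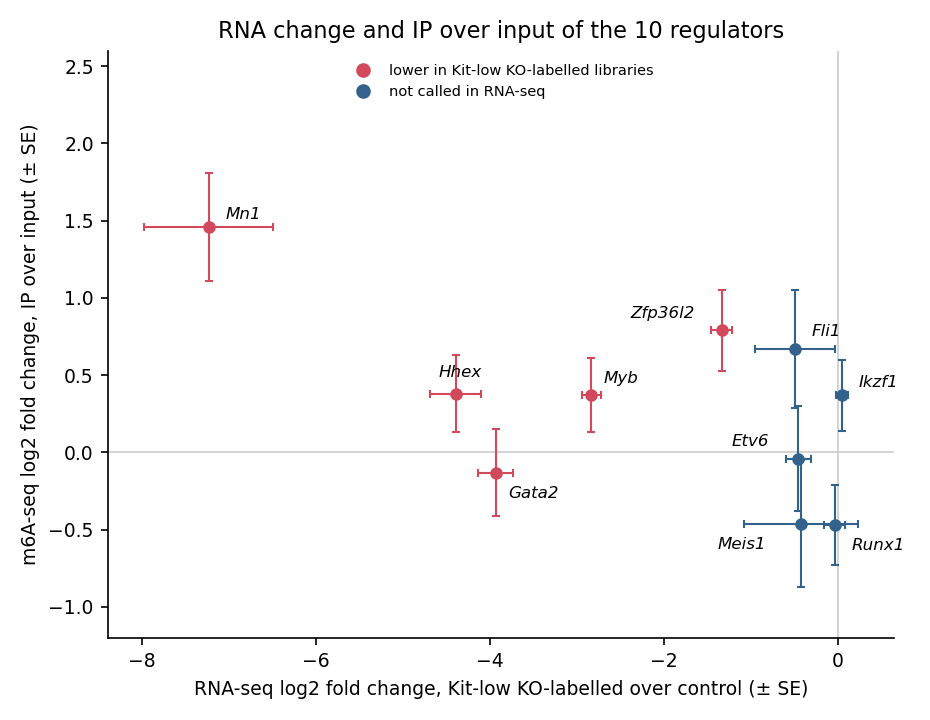
RNA-seq log2 fold change of CFU-E Kit-lo over control (x axis) against m6A-seq log2 fold change of IP over input in control CFU-E (y axis), with SE bars, for the 10 regulators. Genes called lower in the RNA-seq are red and the rest blue, and the 2 colors share the range of IP over input from -0.13 to 0.67, with *Mn1* and *Zfp36l2* above it and *Runx1* and *Meis1* below it.

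Of 18 tested relatives of the regulators, 4 were called lower in IP and 0 higher, where 7.86% and 7.9% of all genes were (median log2 fold change -0.50). In the *Zfp36* family, *Zfp36l1* read 167 and 111 CPM in input and 27.9 and 24.3 CPM in IP (log2 fold change -2.41, SE 0.26, adjusted p = 0.00018 by edgeR with Benjamini-Hochberg adjustment), and *Zfp36* read 12.0 and 16.6 CPM and 5.13 and 5.03 CPM (-1.49, SE 0.29, adjusted p = 0.0079 by the same test). *Zfp36l2* was thus above input in both IP libraries while both of its relatives were below. *Gata1* at -0.59 (SE 0.22) was not called (adjusted p = 0.09 by edgeR with Benjamini-Hochberg adjustment), and 2 of its 11 alternatives called it lower, with adjusted p from 0.01 to 0.40 over all 11.

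Of 22 tested partners 2 were called higher and 2 lower, where 7.9% and 7.86% of all genes were. *Crebbp* (log2 fold change 1.64, SE 0.30) and *Kmt2a* (1.56, SE 0.29), which modify histones, were higher, and *Lmo2*, the bridging protein of GATA and TAL1 complexes, was lower at 730 and 732 CPM in input and 190 and 154 CPM in IP (-2.09, SE 0.23), as was *Lyl1* (-0.88, SE 0.22). Without input replicate 1 the calls of *Crebbp* (adjusted p = 0.063 by edgeR with Benjamini-Hochberg adjustment), *Kmt2a* (adjusted p = 0.071) and *Lyl1* (adjusted p = 0.22) were lost, and that of *Lyl1* also without IP replicate 1 (adjusted p = 0.094) and with library sizes alone (adjusted p = 0.053). Among the CCR4-NOT genes, *Cnot9* (1.82, SE 0.22) and *Cnot1* (1.10, SE 0.26) were higher and *Cnot11* (-2.43, SE 0.29) lower of 15 tested. *Cnot1*, the scaffold of the complex, lost its call without input replicate 1 (adjusted p = 0.18 by edgeR with Benjamini-Hochberg adjustment) or IP replicate 1 (adjusted p = 0.081).

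The other lists held 4 lower and 0 higher of 11 transcription factors, 3 lower and 0 higher of 8 glucocorticoid response genes, and 1 higher and 0 lower of 14 surface genes. Among the genes called lower were *Cebpb*, which belongs to both of the first lists, at -7.38 (SE 0.40), *Klf9* at -1.60 (SE 0.24) and *Egr1* at -1.57 (SE 0.28). The surface gene was *Cd44* (1.26, SE 0.31), which was not called without input replicate 1 (adjusted p = 0.20 by edgeR with Benjamini-Hochberg adjustment). Where 7.9% of all genes were called higher and 7.86% lower, 5 of the 87 tested genes of the 6 lists were higher and 13 lower. Those counts were 1 and 8 without input replicate 1, and 11 were higher without IP replicate 2.

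Across the 11441 genes with a transcript, which share the same 4 libraries and are not independent replicates, IP over input had a Spearman correlation of 0.34 with transcript length, 0.185 with the number of GGACT and -0.0721 with GGACT per kilobase. Genes called higher had a median transcript of 4.22 kb and 4 copies, and genes called lower one of 2.34 kb and 3 copies. The transcript of *Mn1* is 6.86 kb, that of *Zfp36l2* 3.53 kb, that of *Hhex* 1.80 kb and that of *Meis1*, which was lower in both IP libraries, 7.55 kb, the longest of the 10.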

How the data were processed

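Sorted CFU-E cells were profiled by RNA-seq (Smart-seq2, 6 libraries) and by m6A-seq (SLIM-seq, 4 libraries). The authors filtered reads with fastp 0.23.4, quantified transcripts with Kallisto 0.48.0 on mm10, merged them with tximport and deposited estimated counts, all of them whole numbers and not normalized. The strand setting and the use of the molecular identifier of the SLIM-seq primer in counting are not stated. Of 16 samples, the 6 of ProE cells were not analysed here.

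Each experiment was fitted by itself in R 4.3.3 with edgeR 4.0.16 (TMM, filterByExpr, glmQLFit, glmQLFTest, no block) and Benjamini-Hochberg adjustment over all genes. RNA-seq calls needed a fold of 1.5 and an adjusted p under 0.05, and m6A calls an adjusted p under 0.05. The study's further minimum on TPM was not applied, since the deposited counts hold no TPM. The SE is the log2 fold change divided by the square root of F. The biological coefficient of variation was 19.1% and 21.9%. The script was tested on simulated data. Alternatives were DESeq2 1.42.0, other scalings, other filters, no fold threshold, a replicate block and leaving out each library.

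The 10 genes, 6 gene lists and 7 marker lists were chosen with earlier results of these data known. Named were the 10 genes, *Mettl3*, *Kit*, *Gata1*, *Zfp36* and *Zfp36l1*, the 3 largest called rises and falls of each list in the RNA-seq and the 2 largest in m6A-seq, the 3 nearest profiles of *Gata2*, *Myb* and *Zfp36l2* (1 of them is not reported here), and the leading and zero markers. Annotation came from GENCODE vM21 (GRCm38, the same build), where 99.9% of tested symbols were found, with Python 3.11.15. Levels per kilobase use the longest coding transcript. Counting intervals cover counting error only, since PCR copies are not independent molecules. Comparisons of protein sequences were not run.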

Additional observations from a re-analysis of the deposited data

How the results depend on the processing

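*Gata2*, *Myb*, *Hhex*, *Mn1* and *Zfp36l2* were called lower in the RNA-seq, and no other regulator was called, under each of the 13 alternatives run on the 10 genes. These calls describe the processing and are no test, since the list was chosen on this contrast. Dropping the fold threshold raised the genes called lower from 1178 to 2024. The m6A calls were less stable. Companion genes called higher were 8 with DESeq2, and those called lower were 8 with library sizes alone. With upper-quartile scaling, 1451 genes, 10 companion genes and 2 regulators (*Mn1* and *Zfp36l2*) were called higher. Scaling by library sizes alone and by the upper quartile shifted the median log2 fold change of all genes by 0.16 and 0.13. Leaving out 1 library at a time gave 164 to 1358 genes higher, 427 to 968 lower, 1 to 11 companion genes higher, 8 to 13 lower, and 0 to 1 regulators higher, where a lone library was assumed to vary like the others. In the RNA-seq the same step gave 1201 to 1513 genes higher and 979 to 1247 lower. Deviations of same-numbered libraries correlated at 0.0344, -0.017 and -0.0719 for RNA-seq and 0.205 for m6A-seq, and nothing in the labels says that a number marks a shared animal. A replicate block gave 1783 genes, 15 companion genes and 2 regulators (*Mn1* and *Zfp36l2*, the latter at 0.80 and not called without the block) higher and 1755 genes and 19 companion genes lower in m6A-seq, *Gata1* among the latter (adjusted p = 0.01 by edgeR), and 1370 genes higher and 1125 lower in the RNA-seq, where *Gata2* and the other 4 kept their calls. The cause of these differences was not tested. Counts were low for *Meis1* and *Mn1* in the RNA-seq and for *Mn1*, *Fli1* and *Meis1* in m6A-seq, where 2 libraries a group limit all values.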

Other observations

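*Cebpb*, a transcription factor of myeloid cells, read 685 and 462 counts in the input libraries of control CFU-E and 6 and 4 counts in the IP libraries, whereas the RNA-seq libraries of control CFU-E held 5, 1 and 0 counts and those of CFU-E Kit-lo 7, 4 and 6. The 2 kinds of library were prepared and scaled separately, so the levels are set side by side with no test between them. *Lmo2* differed in the same direction, with 16551 and 13026 counts in input, 7908 and 3069 in IP and 1215, 1003 and 992 in the control RNA-seq libraries.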
